A study of Mus musculus with 23 samples.

Results

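Ccl5 and 9 other chemokine genes (Ccl2, Ccl3, Ccl4, Ccl6, Ccl9, Ccl12, Cxcl9, Cxcl10 and Cxcl16) were followed in 23 RNA-seq libraries of GFP+ microglia sorted from mouse retinas. The genes were chosen by name as chemokines of microglia, and all 10 were found among the 35825 genes of the deposited table through their Ensembl identifiers. All mice carried the CX3CR1-GFP reporter, so every sorted cell came from a reporter mouse. By the paper's account, 1 copy of the fractalkine receptor gene Cx3cr1 is replaced by GFP. Wild-type reporter mice (WT) were compared with reporter mice crossed to a line lacking Spp1 (KO), the gene of the secreted glycoprotein osteopontin. Each genotype was sampled as naive retinas (4 libraries each), at 4 weeks after intraocular pressure (IOP) elevation by microbeads injected into the anterior chamber (4 libraries each), and at day 7 after optic nerve crush (ONC; 3 WT and 4 KO libraries). The methods describe pooling retinas of multiple mice ahead of dissociation, whereas a legend on these data counts mice, so whether a library stands for a pool or for 1 mouse was not settled here, and p-values measure the spread between these libraries. GFP marks every cell with an active Cx3cr1 gene, which includes monocytes and border macrophages as well as microglia. The paper describes this Spp1 KO line as a global knockout, so the deletion was not limited to microglia.

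Chemokines are small secreted proteins that attract leukocytes by binding G-protein-coupled receptors, and most carry a name by the spacing of their first cysteines (CC or CXC). Microglia, the resident macrophages of the retina and brain, make several of them after injury, largely under the control of NF-kB and interferon-responsive transcription factors. Ccl5, Ccl3 and Ccl4 attract T cells and monocytes, Ccl2 and Ccl12 act on Ccr2 of monocytes, Ccl6 and Ccl9 act on Ccr1, Cxcl9 and Cxcl10 act on Cxcr3 of T and NK cells, and Cxcl16 is a membrane-bound ligand of Cxcr6.

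Of the 10 genes, 8 lie on chromosome 11 and the others on chromosome 5 (GRCm38 coordinates, GENCODE M21). Ccl5 lies at chr11:83525778-83530518 on the minus strand with 3 merged exons, next to Ccl9 (chr11:83572919-83578636, minus), Ccl6 (chr11:83587882-83593087, minus), Ccl3 (chr11:83647844-83649355, minus) and Ccl4 (chr11:83662584-83664683, plus). Ccl2 (chr11:82035571-82037453, plus) and Ccl12 (chr11:82101845-82103400, plus) form another neighbourhood, and Cxcl16 (chr11:70453983-70459984, minus) lies apart. Cxcl9 (chr5:92321347-92328079, minus) and Cxcl10 (chr5:92346638-92348889, minus) are neighbours on chromosome 5. No stretch of 31 bases in the transcripts of one of these genes recurred in another of them, so their reads can be told apart. Exons of Cxcl10 and Cxcl16 overlap exons of Art3 and Zmynd15 on the opposite strand, and 4.47% and 18.5% of their 31-base stretches are shared, so reads there could have been counted for either gene if counting ignored strand.

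Promoter sequence, the 250 bases before the RefSeq transcription start (GRCm38.p6), was at hand for 6 of the 10 genes (Ccl3, Ccl6, Ccl9, Ccl12, Cxcl9 and Cxcl10). Each was searched on both strands for the interferon-stimulated response element GAAANNGAAA, found in 2.98% of 32851 promoters of that length, and for the NF-kB consensus, found in 7.25% of them. Cxcl10 held 1 interferon element, which starts at position -213 from the start, and 3 NF-kB matches, of which 2 overlap each other. Ccl9 held 1 NF-kB match at position -35, and the other 4 promoters held no match of these letters in the window. The promoters of Cxcl10 and Ccl9 are shown because they are the ones with a match, and that of Cxcl9 because it is the neighbour and closest functional partner of Cxcl10. Capitals mark the matches, the first in Cxcl10 being the interferon element and the rest NF-kB matches. All 3 are on the minus strand and run 5′ to 3′, at chr5:92348890-92349139 for Cxcl10, chr11:83578637-83578886 for Ccl9 and chr5:92328080-92328329 for Cxcl9.
Cxcl10: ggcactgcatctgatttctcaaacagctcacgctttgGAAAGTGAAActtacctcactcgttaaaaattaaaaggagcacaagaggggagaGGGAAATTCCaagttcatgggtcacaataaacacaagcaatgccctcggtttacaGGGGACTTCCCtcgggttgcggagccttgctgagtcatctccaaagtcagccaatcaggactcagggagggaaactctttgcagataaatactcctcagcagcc
Ccl9: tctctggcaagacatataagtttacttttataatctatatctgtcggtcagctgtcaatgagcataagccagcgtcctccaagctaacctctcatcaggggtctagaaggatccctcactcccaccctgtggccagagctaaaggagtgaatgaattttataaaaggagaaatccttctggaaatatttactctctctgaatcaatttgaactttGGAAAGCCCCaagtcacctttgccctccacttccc
Cxcl9: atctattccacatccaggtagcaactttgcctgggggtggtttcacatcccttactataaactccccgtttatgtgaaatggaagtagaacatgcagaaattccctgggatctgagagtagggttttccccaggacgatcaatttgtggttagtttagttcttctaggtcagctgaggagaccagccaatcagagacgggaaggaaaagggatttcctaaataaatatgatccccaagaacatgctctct

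Values are normalized counts, read counts divided by a size factor of each library, and libraries held 22180480 to 30296094 reads on genes. Defining microglia markers (11 genes, Cx3cr1 not among them, led by Csf1r) were present in every library, with sums of 268404 to 1261872 normalized counts. Their content was not even: the naive libraries labelled KO had marker sums of 268404, 285247 and 321481 in replicates 1, 2 and 4 and of 895649 in replicate 3, against 640350 to 845738 in naive WT. Rod photoreceptor markers were abundant throughout (180934 to 741705), border macrophage and monocyte markers, led by F13a1, summed to 2783 to 58413, and lens markers, led by Cryaa, summed to 28923 to 210717 in the WT IOP libraries and to at most 2854 in all others. T and NK cell markers, led by Cd4, summed to 207 to 787, B cell markers, led by Cd79b, to 200 to 1219, dendritic cell markers, led by Zbtb46, to 173 to 666, Muller glia and astrocyte markers, led by Dkk3, to 23147 to 89195, and endothelial markers, led by Flt1, to 498 to 5801. Neutrophil markers summed to 3264 to 20192, nearly all of it Csf3r, while the defining neutrophil gene Ly6g was at 0 in all 23 libraries. Cx3cr1, whose promoter drives the reporter used for sorting, was at 952 to 1233 normalized counts in the 4 KO-labelled IOP libraries and at 9417 or more in all others, and the part of this in the chemokine values was not tested. In sorted bulk samples, fewer cells of a type and less RNA per cell cannot be told apart. Spp1 went against the label in several KO libraries, with 350.2 normalized counts in naive replicate 1 (334 to 1518 in naive WT), 811 and 761 in IOP replicates 2 and 4 (1343 to 2772 in WT IOP) and 4750, 6811 and 6226 in ONC replicates 1, 2 and 4 (14557 to 22906 in WT ONC). It was at 15 in ONC replicate 3 and at most 81.6 in the other naive and IOP ones, so these libraries are called KO-labelled throughout.

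Compared per kilobase of the longest coding transcript, Ccl12 and Ccl6 had the highest levels of the 10 genes in all 6 groups, and Cxcl9 had the lowest. In naive WT retinas the level of Ccl12 was 4776 ± 1390 normalized counts per kb and that of Ccl6 was 4192 ± 483 (SD, n = 4). Ccl5 reached 1090 ± 368 per kb there and was the fifth in that order. After ONC in KO-labelled mice Ccl5 reached 6704 ± 1509 per kb (SD, n = 4), behind Ccl12 at 15534 ± 2190 and Ccl6 at 13354 ± 2294. Together, the 10 genes took 0.0688 ± 0.0086% of all normalized counts in naive WT and 0.269 ± 0.120% in WT ONC libraries (SD, n = 4 and 3). The corresponding shares were 0.0462 ± 0.0204% in KO-labelled naive and 0.196 ± 0.0277% in KO-labelled ONC libraries (SD, n = 4 each).

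**Figure D1:**
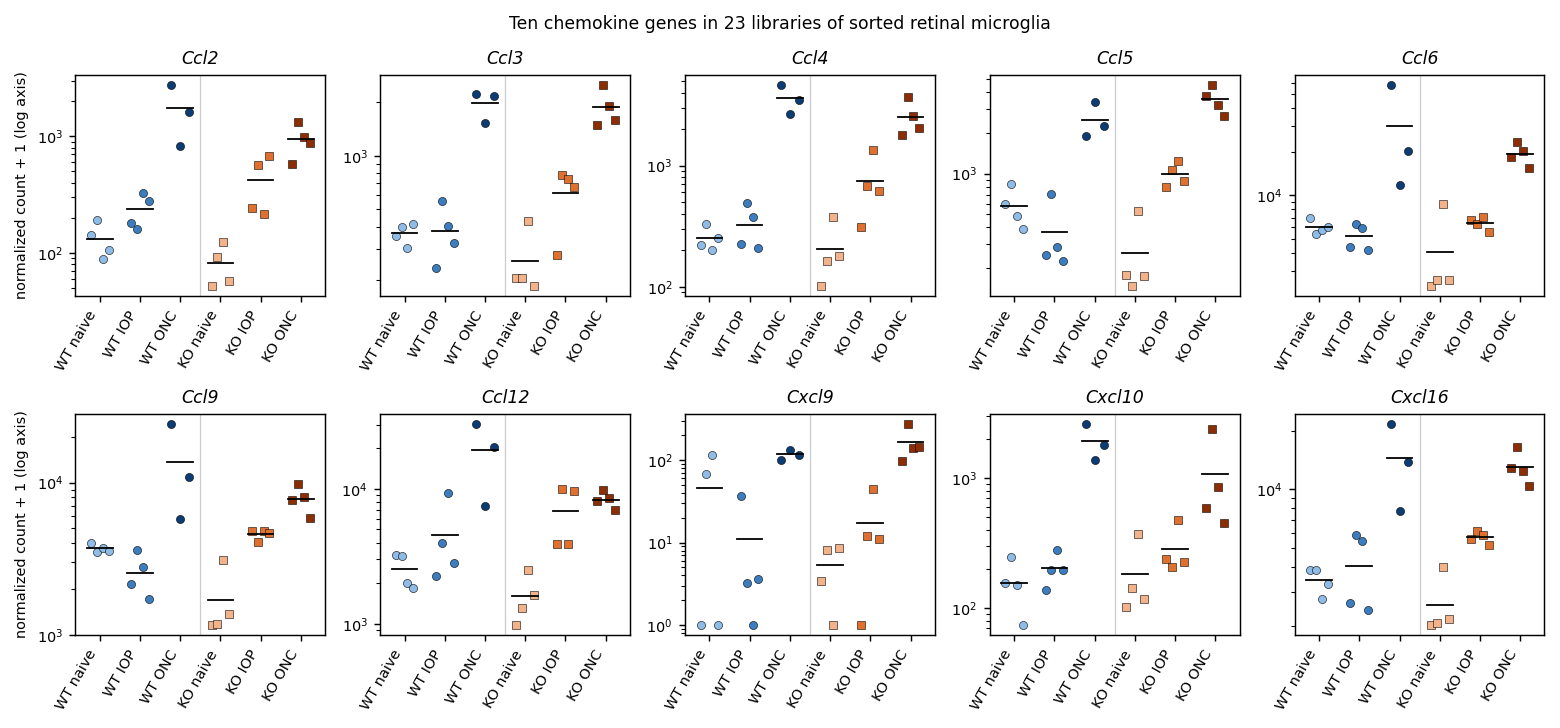
Normalized count plus 1 (log axis) of each of the 10 chemokine genes, with 1 point for each of the 23 libraries, circles for WT and squares for KO-labelled libraries, and a black line at each group mean. The ONC libraries are the highest in most panels, as for Ccl5, where they lie between 1899 and 4568 and all others lie at or below 1239.

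Ccl5 was highest after ONC in both genotypes, and of the 10 genes it had the lowest adjusted p for a difference between genotypes in the response to IOP elevation. Naive WT libraries held 600.1, 843, 489 and 388 normalized counts of Ccl5, and WT IOP libraries held 249, 712, 286 and 226. In WT ONC libraries the values were 1899, 3371 and 2248. The WT ONC libraries thus all lay above the naive and IOP libraries, which overlapped each other. KO-labelled naive libraries held 177, 147, 526 and 173, KO-labelled IOP libraries 789, 1059, 1239 and 888, and KO-labelled ONC libraries 3769.9, 4568, 3248 and 2680.0. The 3 KO-labelled groups did not overlap, and the 526 of naive replicate 3 stood apart from its group. In the order of group means, KO-labelled ONC was followed by WT ONC, KO-labelled IOP, naive WT, WT IOP and KO-labelled naive, and only WT ONC and KO-labelled IOP had ranges that did not overlap among neighbours.

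After ONC in WT retinas, 9 of the 10 chemokines rose, and Cxcl9 did not pass the test. Over all 17102 genes tested, 18.1% passed in either direction and 7.55% passed as higher. The median log2 fold change of the 10 genes was 2.59, against -0.10 over all genes tested. Genes were called with an adjusted p under 0.05 (limma, Benjamini-Hochberg over all genes tested) and an absolute log2 fold change over 0.58 on log2(normalized count + 1).

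Ccl4, a macrophage inflammatory protein, went from 222, 331, 200.2 and 254 normalized counts in naive WT to 4658, 2665 and 3466 in WT ONC libraries. That is a log2 fold change of 3.82 (SE 0.44, adjusted p = 6.17e-06), the highest of the 9. Its relative Ccl3 went from 303 to 412 in naive WT to 1530.5 to 2232 after ONC, a log2 fold change of 2.42 (SE 0.35, adjusted p = 6.6e-05). The ratio of Ccl4 to Ccl3 counts was 0.685 ± 0.103 in naive WT (SD, n = 4) and 1.81 ± 0.256 in WT ONC libraries (SD, n = 3), with no overlap. Ccl5 rose by 2.12 on the log2 scale (SE 0.40, adjusted p = 0.000896). The 3 ONC libraries ordered these genes differently. Replicate 1 had the highest Ccl3 and Ccl4 but the lowest Ccl5 (1899), and replicate 2 had the lowest Ccl3 and Ccl4 but the highest Ccl5 (3371).

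The monocyte attractants Ccl2 and Ccl12 also rose. Ccl2 was at 141, 189, 87.0 and 106 in naive WT and at 2771, 832 and 1607 in WT ONC libraries, a log2 fold change of 3.62 (SE 0.46, adjusted p = 1.82e-05). Ccl12, the mouse paralogue of Ccl2, went from 1833 to 3235 in naive WT to 7414 to 30364, a log2 fold change of 2.75 (SE 0.48, adjusted p = 0.000377). The groups did not overlap for either gene. The ratio of Ccl12 to Ccl2 counts was 20.1 ± 3.43 in naive WT and 10.9 ± 1.95 in WT ONC libraries (SD, n = 4 and 3).

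Of the Ccr1 ligands, Ccl6 was at 5339 to 6985 in naive WT and at 58139, 11698 and 20158 in WT ONC libraries (log2 fold change 1.99, SE 0.41, adjusted p = 0.00175). Ccl9 was at 3522 to 3997 in naive WT and at 24283, 5757 and 10795 after ONC (1.63, SE 0.36, adjusted p = 0.00342). ONC replicate 1 was far above the others for both genes, and without it the log2 fold changes were 1.35 (adjusted p = 0.0231) and 1.09 (adjusted p = 0.0462). Replicate 1 also had the most microglia marker counts of all 23 libraries (1261872).

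Cxcl10, an interferon-inducible attractant of T cells, was at 156, 248, 149 and 73.4 in naive WT and at 2609, 1367 and 1808 after ONC, with a log2 fold change of 3.69 (SE 0.52, adjusted p = 5.01e-05). Its partner Cxcl9 was at 0, 67.0, 115 and 0 in naive WT and at 101, 134 and 116 after ONC. The ranges of Cxcl9 overlapped, and its fitted log2 fold change of 3.63 (SE 1.53, adjusted p = 0.0996) did not pass. Its ratio of group means was 2.57, and edgeR gave a log2 fold change of 1.36 and DESeq2 of 1.36, so the fitted value overstates the fold of this gene, which has zeros. It passed in limma without naive WT replicate 3, the library with 115. Cxcl16 was at 2764 to 3875 in naive WT and at 21635, 7796 and 13860 after ONC (1.96, SE 0.32, adjusted p = 0.000237). Border macrophage and monocyte markers were lower in the same libraries (2783 to 8370, against 17690 to 35686 in naive WT), and 6 of 10 of them fell, with 0 higher, where 10.5% of all genes tested passed as lower. Of 15 T and NK cell markers tested 0 were called higher and 1 lower. Unadjusted p (limma) under 0.05 was reached by 5 as higher and 1 as lower, with a median log2 difference of 0.935. The list summed to 241 to 737 after ONC and 312 to 787 in naive WT. Cd4 led the naive sum (mean 322) and Cd8a the ONC sum (mean 58.1), so the sum does not follow the other markers of the list. The part of these cells in the chemokine values was not tested.

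After ONC, all 10 chemokines rose in KO-labelled libraries against KO-labelled naive libraries, where 23.6% of all genes tested passed in either direction and 12.7% as higher. The median log2 fold change of the 10 genes was 2.70, against -0.12 over all genes tested and 1.26 over the 11 microglia markers. Ccl12, Cxcl9 and Cxcl10 each lost the call under an alternative that kept all KO-labelled naive and ONC libraries. Ccl5 had the largest fold of the CC chemokines, with a log2 fold change of 3.98 (SE 0.37, adjusted p = 1.17e-06). Ccl4 followed with 3.72 (SE 0.41, adjusted p = 3.88e-06), Ccl2 with 3.56 and Ccl3 with 2.93. Ccl2 was at 51.4, 90.9, 124 and 56.1 in naive and at 582, 1326, 988 and 879 in ONC libraries, which did not overlap.

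Ccl6, Ccl9 and Ccl12 rose by 2.47, 2.32 and 2.45 on the log2 scale, and Cxcl16 by 2.38. Cxcl10 was at 102, 142, 370.04 and 117 in KO-labelled naive and at 591, 2401, 849 and 449 in ONC libraries, a log2 fold change of 2.43 (SE 0.48, adjusted p = 0.000986). ONC replicate 2 was the highest of them, and it was the highest of its group for all 10 genes. Cxcl9 was at 2.4, 7.2, 0 and 7.6 in KO-labelled naive libraries, which is 0 to 9 reads, and at 98.2, 275, 141 and 143 after ONC. Its fitted log2 fold change of 5.28 (SE 1.42, adjusted p = 0.00932) depends on the pseudocount, being 5.63 with 0.5 and 4.18 with 5.

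KO-labelled naive replicates 1, 2 and 4 held fewer microglia marker counts than replicate 3 did, by 3.34, 3.14 and 2.79 times. With replicate 3 as the only naive library, the log2 fold change of Ccl5 after ONC was 2.73. Those of the 10 genes ran from 1.14 (Ccl6) to 7.27 (Cxcl9). With ONC replicate 3, in which Spp1 was near 0, as the only ONC library, they ran from 2.33 (Cxcl16) to 5.17 (Cxcl9). Calls are not given for these fits, since 1 library in a group shows no spread of its own.

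**Figure D2:**
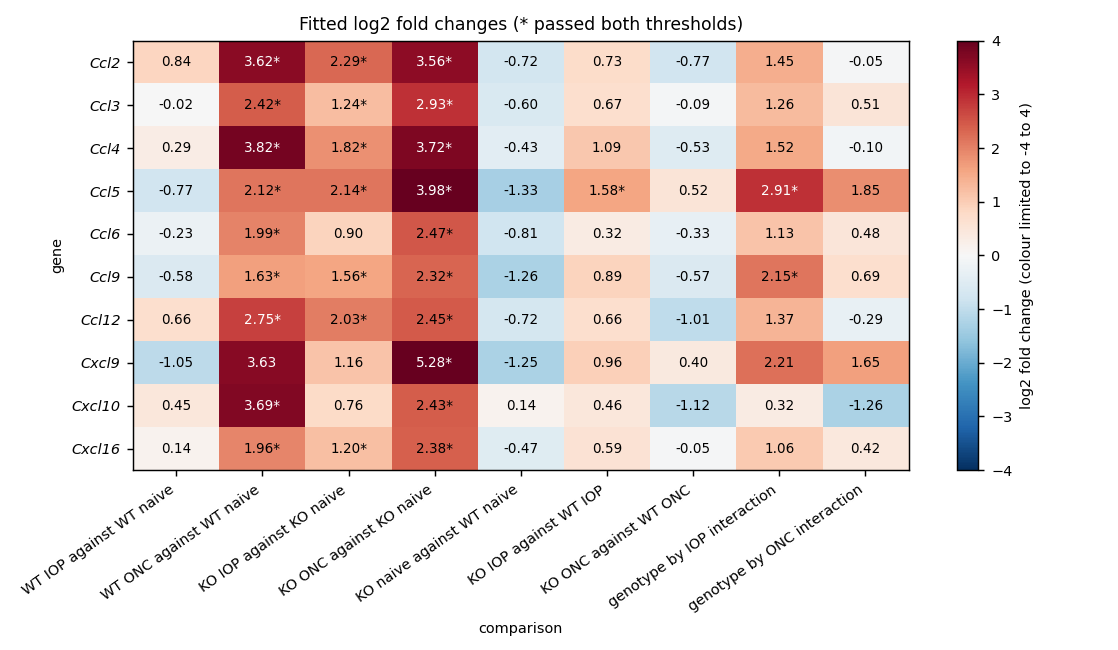
Fitted log2 fold change of each chemokine (rows) in each of the 9 comparisons (columns), with an asterisk where it passed both thresholds and colour from blue (lower) to red (higher). The ONC columns hold 9 and 10 called genes, the column of KO IOP against KO naive holds 7, and Ccl5 is the gene called in KO IOP against WT IOP.

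At 4 weeks after IOP elevation, 0 of the 10 chemokines passed in WT retinas by limma, where 1.56% of all genes tested passed. Unadjusted p under 0.05 was reached by 0 of the 10 and by 2279 of all genes tested, and edgeR and DESeq2 on recovered reads also called 0 of the 10. The log2 difference was 0.84 (SE 0.43) for Ccl2, with 179, 160, 328 and 276 in IOP libraries, and -0.77 (SE 0.37) for Ccl5. Ccl12 stood at 9290 in IOP replicate 3 and at 2277 to 3974 in the others. The groups overlapped for both Ccl5 and Ccl12, and the median of the 10 genes was 0.06.

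In KO-labelled retinas, 7 of the 10 chemokines rose after IOP elevation against KO-labelled naive libraries, where 7.88% of all genes tested passed in either direction and 5.06% as higher. The 7 were Ccl2, Ccl3, Ccl4, Ccl5, Ccl9, Ccl12 and Cxcl16, and Ccl6, Cxcl9 and Cxcl10 did not pass. Ccl5 rose by 2.14 on the log2 scale (SE 0.37, adjusted p = 0.00611), with no overlap. Ccl2 was at 243, 562, 214 and 672 in IOP libraries, a log2 fold change of 2.29 (SE 0.43, adjusted p = 0.00823). Ccl12 was at 3919, 9959, 3912 and 9589 (2.03, SE 0.44, adjusted p = 0.0159). Replicates 2 and 4 were high in both, and the naive values of 51.4 to 124 for Ccl2 and 978 to 2510 for Ccl12 lay below all 4.

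The other 4 called genes rose less. Ccl4 was at 308, 684, 1353 and 611 after IOP elevation and at 101, 161, 379 and 180.2 in naive libraries (1.82, SE 0.41, adjusted p = 0.0173), which overlapped. Ccl9 was at 4781, 4077, 4774 and 4675 against 1159, 1168, 3083 and 1362 (1.56, SE 0.34, adjusted p = 0.0153), with no overlap. Ccl3 and Cxcl16 had log2 fold changes of 1.24 (SE 0.33) and 1.20 (SE 0.30). Of the genes that did not pass, Ccl6 had a log2 fold change of 0.90 (SE 0.38, adjusted p = 0.13), and Cxcl10 had 0.76 (SE 0.48).

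The count of 7 depends on which KO-labelled naive libraries enter. It was 2 (Ccl2 and Ccl5) without naive replicate 1, 2 or 4, 8 without naive replicate 3, and 4 without IOP replicate 3. The count was 0 in a fit of these 2 groups alone and with the rod photoreceptor markers as a covariate. With naive replicate 3 as the only naive library, Ccl5 had a log2 fold change of 0.90. The 7 genes then ran from 0.41 (Ccl3) to 1.59 (Ccl2). IOP replicates 2 and 4, high in Ccl2 and Ccl12, held 2177 and 2145 normalized counts of Ccr2, the monocyte receptor for these ligands, against 1217 and 117 in replicates 1 and 3. The whole border macrophage and monocyte list, which includes Ccr2, summed to 37687 and 34824 in replicates 2 and 4 and to 30679 and 29294 in replicates 1 and 3, and the dendritic cell list to 638 and 663 against 175 and 514. Replicates 2 and 4 were also the KO-labelled IOP libraries in which Spp1 went against the label. Without replicates 2 and 4, only Ccl5 was called (log2 fold change 2.16, adjusted p = 0.0418), where 0.871% of all genes tested passed in either direction. The log2 fold changes of Ccl2 and Ccl12 were then 1.58 (adjusted p = 0.0868) and 1.37 (adjusted p = 0.129). The male-specific gene Ddx3y was at 0 to 3.05 in all 4 IOP libraries and at 1713, 1302, 28.1 and 1582 in naive replicates 1 to 4, so sex composition cannot be told apart from IOP elevation in replicates 1, 2 and 4. The part of Spp1 and of the monocyte and dendritic cell markers in the result was not tested.

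The genotypes were compared at each state. Between naive groups, 0 of the 10 chemokines passed by limma (0.409% of all genes tested), and 3 of the 10 had an unadjusted p under 0.05, all lower in KO-labelled libraries. DESeq2 on recovered reads called 1, Ccl9 (-1.13, adjusted p = 0.041), and edgeR called 0. Ccl5 differed by -1.33 (SE 0.37, adjusted p = 0.0853) and Ccl9 by -1.26 (SE 0.34, adjusted p = 0.0734). Without KO-labelled naive replicate 3, 3 genes were called, with Ccl5 at -1.74 (adjusted p = 0.00194). The median log2 difference of the microglia markers in this comparison was -0.97.

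After IOP elevation, Ccl5 was the 1 chemokine of 10 that passed between genotypes, where 2.11% of all genes tested passed in either direction and 0.468% as higher. The groups did not overlap (789 to 1239 against 226 to 712), and the log2 fold change was 1.58 (SE 0.37, adjusted p = 0.0285). Leaving out WT IOP replicate 1, 3 or 4 or KO-labelled IOP replicate 2, 3 or 4 ended the call, with log2 fold changes of 1.40 to 1.63 and adjusted p of 0.0539 to 0.129. The call was also lost with edgeR (adjusted p = 0.0709), with the rod photoreceptor markers as a covariate (adjusted p = 0.158) and in a fit of these 2 groups alone (adjusted p = 0.0685), and it was kept with DESeq2 (adjusted p = 0.0121). Lens markers (28923 to 210717 in WT IOP, at most 147 in KO-labelled IOP) and the male-specific gene Ddx3y (633 to 2274 against 0 to 3.05) also differed between these groups, so sex composition and genotype cannot be told apart there, and the part of lens RNA was not tested. Without KO-labelled replicates 2 and 4, in which Spp1 went against the label, Ccl5 differed by 1.59 (adjusted p = 0.109). Ccl2 then differed by 0.02, and 1.16% of all genes tested passed. Ccl4 and Ccl9 had log2 differences of 1.09 (SE 0.41) and 0.89 (SE 0.34), neither called.

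After ONC, 0 of the 10 chemokines passed between genotypes by limma, nor by edgeR or DESeq2 on recovered reads, and 0.0877% of all genes tested passed. Unadjusted p under 0.05 was reached by 2 of the 10, Ccl12 with -1.01 (SE 0.48) and Cxcl10 with -1.12 (SE 0.52). The ranges overlapped for both. The difference of Ccl5 was 0.52 (SE 0.40), so a rise or a fall of Ccl5 between genotypes was not shown at this spread. Ddx3y was at 3.51, 9.21 and 1797 in WT ONC libraries and at 1369 to 1717 in KO-labelled ONC ones. In naive WT libraries Ddx3y spanned 0 to 2623. Sex composition was thus uneven in the ONC comparisons and their interaction too, and its part was not tested.

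The response to IOP elevation differed between genotypes for 2 of the 10 chemokines, Ccl5 and Ccl9, as tested by the interaction of genotype and treatment, for which 8.75% of all genes tested passed in either direction and 4.85% as higher. Unadjusted p (limma) under 0.05 was reached by 8 of the 10, all higher, and by 4495 of all genes tested in either direction. The median interaction of the 10 was 1.41, against -0.08 over all genes tested. The interaction was 2.91 on the log2 scale for Ccl5 (SE 0.53, adjusted p = 0.00433) and 2.15 for Ccl9 (SE 0.47, adjusted p = 0.0121). Both genes had lower values in WT IOP than in naive WT libraries (log2 differences of -0.77 and -0.58, neither called), and both rose in KO-labelled ones. With naive replicate 3 as the only KO-labelled naive library, the interaction was 1.66 for Ccl5 and 1.15 for Ccl9. The count was 6 without that replicate and 4 without KO-labelled IOP replicate 1. It was 0 with the rod photoreceptor markers as a covariate. The microglia markers had a median interaction of 1.47, above 0 for 11 of 11 with 6 called higher, and the rod markers had a median of -1.24. The lens markers had a median interaction of -9.17, with 8 of 8 called lower. The part of these marker lists in the result was not tested. The gap in Ddx3y described for the KO-labelled IOP libraries enters the interaction too. The interaction of genotype with ONC passed for 0 of the 10 by limma, edgeR and DESeq2, and 0.0702% of all genes tested passed. Ccl5 alone had an unadjusted p under 0.05 there, with 1.85 (SE 0.55, adjusted p = 0.174), and it was called without KO-labelled naive replicate 3 (2.27, adjusted p = 0.0103).

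Chemokine values moved with the microglia marker content, so the same libraries were also scaled to the 11 markers, an alternative chosen after seeing the data. Under that scaling all genes shift, by medians from -1.63 to 1.02 on the log2 scale depending on the comparison. After ONC, 9 of 10 chemokines stayed called in WT, all higher, where 8.78% of all genes tested passed in either direction. In KO-labelled libraries 10 of 10 did, with log2 fold changes of 1.01 to 3.97. There 61.4% of all genes tested passed in either direction, around a median of -1.434. Shares for the higher direction alone are not given under this scaling. After IOP elevation in KO-labelled libraries 3 of 10 stayed called, all higher. They were Ccl2 at 1.16 (adjusted p = 0.0348), Ccl5 at 1.01 (adjusted p = 0.0256) and Ccl12 at 0.90 (adjusted p = 0.0396). Of all genes tested 52.5% passed in either direction, around a median of -1.255, so this share is not like the count of genes called higher. Between genotypes after IOP elevation, Ccl5 was not called (adjusted p = 0.129), where 1.12% of all genes tested passed. The interaction of Ccl5 with IOP elevation was 1.36 (adjusted p = 0.0353), and that of Ccl9 was 0.60 (adjusted p = 0.0777) and no longer called. For the interaction 46.6% of all genes tested passed in either direction, around a median of -1.625.

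Per 1000 microglia marker counts, Ccl5 counts were 0.785 ± 0.365 in naive WT, 0.614 ± 0.268 in WT IOP, 3.02 ± 2.19 in WT ONC, 0.576 ± 0.0637 in KO-labelled naive, 1.19 ± 0.223 in KO-labelled IOP and 3.899 ± 0.478 in KO-labelled ONC libraries (SD, n = 4 each and 3 for WT ONC). On this measure KO-labelled naive replicate 3 no longer stood apart, with its group spanning 0.516 to 0.660. The KO-labelled IOP libraries (0.884 to 1.41) all lay above that range.

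**Figure D3:**
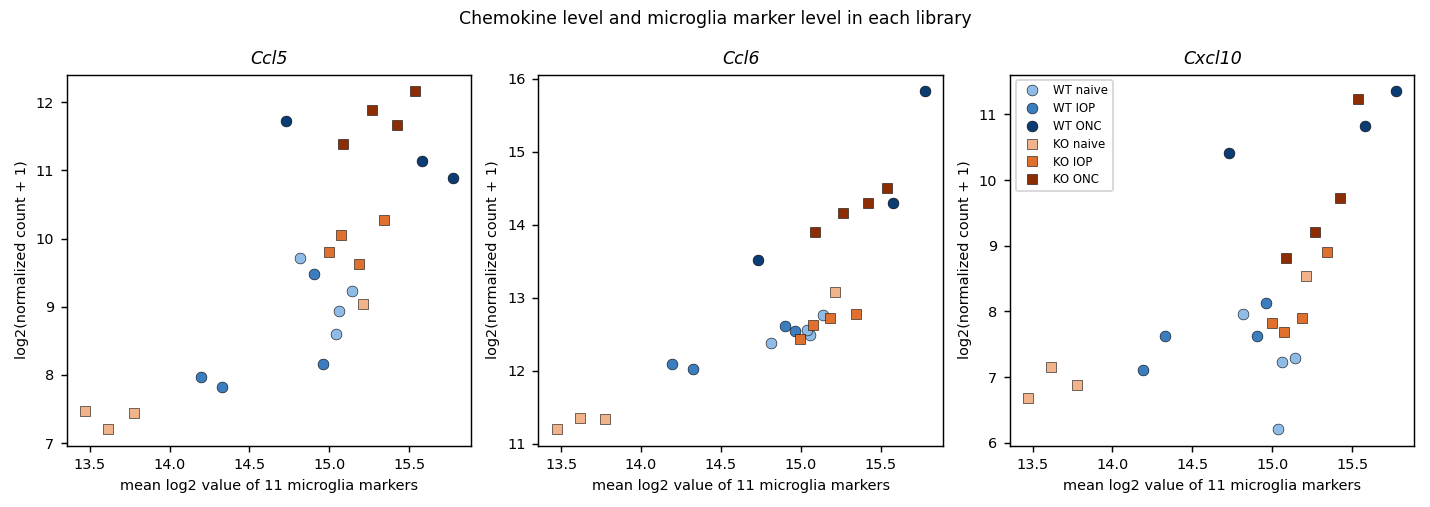
The level of Ccl5, Ccl6 and Cxcl10 (log2 of normalized count plus 1) against the mean log2 value of 11 microglia markers, with 1 point for each of the 23 libraries (circles WT, squares KO-labelled). For Ccl5 and Ccl6 every ONC library lies above every other library, whereas for Cxcl10 KO-labelled ONC replicate 4 (449) lies below KO-labelled IOP replicate 3 (477).

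**Figure D4:**
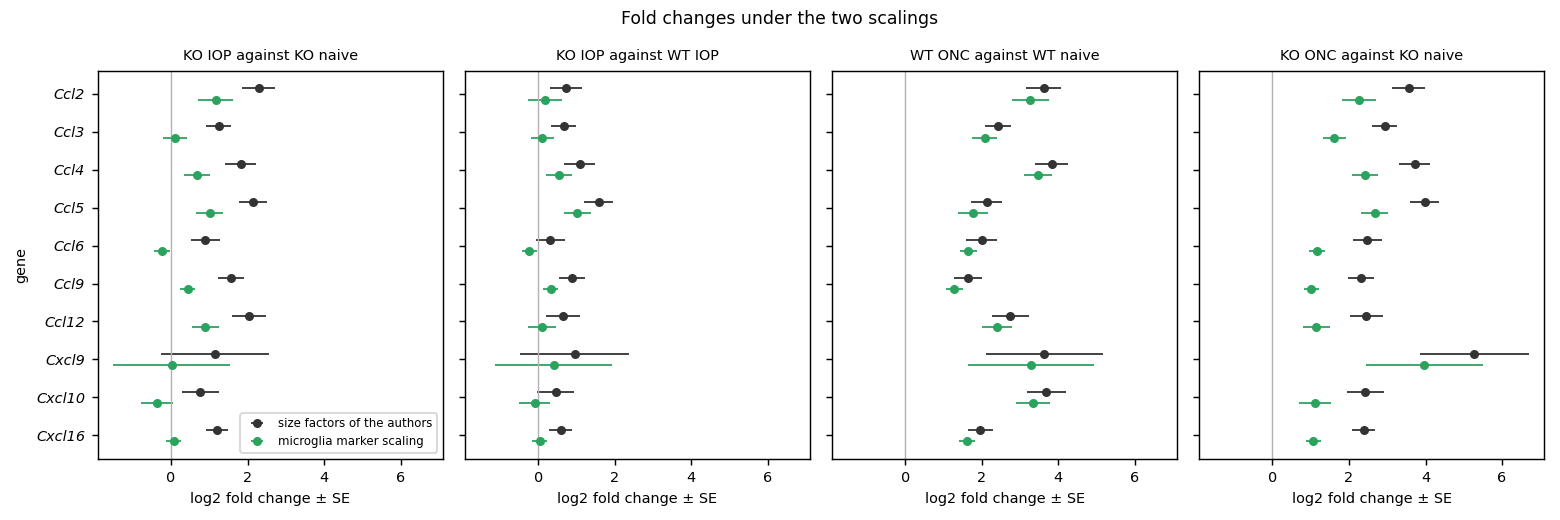
Log2 fold change ± SE (standard error of the fit) of each chemokine in 4 comparisons, with the authors' size factors in black and with microglia marker scaling in green. Every ONC value stays above 0 under both, whereas Ccl5 in KO-labelled IOP libraries moves from 2.14 to 1.01.

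The 10 genes were more alike over all libraries than within groups. Over 23 libraries, Pearson's r of log2 values ran from 0.47 to 0.98 in the 45 pairs, and 35 pairs were over 0.8. Libraries of a group share treatment and genotype, so these values are descriptions only. Taken as deviations from group means, r ran from -0.32 to 0.96, with 5 pairs over 0.8, of which Ccl6 with Ccl9 (0.96) was the highest. Ccl5 and Ccl2 had r = 0.04 within groups. With the mean of the microglia markers, r within groups was 0.89 for Ccl6, 0.87 for Ccl9, 0.83 for Cxcl16, 0.52 for Ccl5 and -0.35 for Cxcl9.

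**Figure D5:**
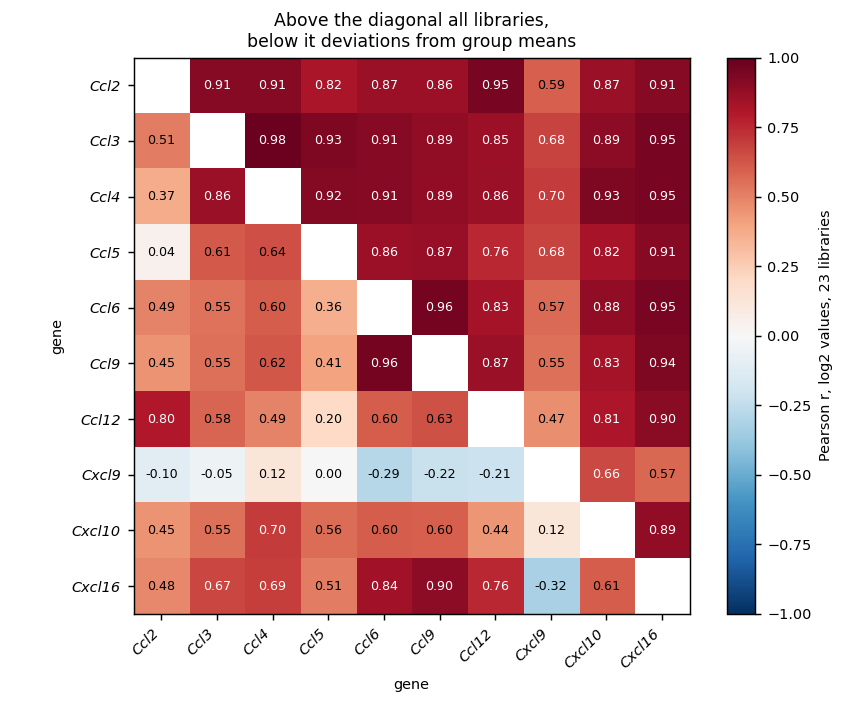
Pearson correlation of log2 values for each pair of the 10 chemokines over 23 libraries, with all libraries above the diagonal and deviations from group means below it, both axes listing the genes. Values above the diagonal run from 0.47 to 0.98, and those below it from -0.32 to 0.96.

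The 5 genes whose values over the 23 libraries were most like those of Ccl5 were Ctsb (r = 0.97), Ctsa (0.96), Ctsd (0.95), H2-D1 (0.95) and Map4k1 (0.95). Within the members, the ratio of Ccl9 to Ccl6 counts was 0.643 to 0.846 in KO-labelled IOP libraries and 0.358 to 0.66 in all other groups. The ratio of Cxcl10 to Cxcl9 counts was 17.3 ± 7.97 in WT ONC (SD, n = 3) and 5.97 ± 2.28 in KO-labelled ONC libraries (SD, n = 4), with no overlap.

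Of 27 other chemokine ligands, 18 were tested. In WT retinas after ONC, 1 was called higher and 4 lower, where 7.55% and 10.5% of all genes tested passed in those directions, with Cxcl13, an attractant of B cells, at 6.88 and with Pf4 at -3.81 and Cx3cl1, the ligand of Cx3cr1, at -2.15 on the log2 scale. In KO-labelled libraries after ONC 2 were called higher, Cxcl13 at 4.58 and Ccl8 at 3.02, and 3 lower, among them Cx3cl1 at -1.37, where 23.6% of all genes tested passed. In the other 7 comparisons, 0 were called.

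Of 23 chemokine receptors listed, 20 were tested. After ONC the atypical receptor Ccrl2 rose in both genotypes (1.69 in WT, 1.75 in KO-labelled), and in WT 3 receptors fell, among them Ccr3 (-5.90) and Ackr4 (-3.23). The counts of 4 of 20 in WT and 2 of 20 in KO-labelled libraries stand beside 18.1% and 23.6% of all genes tested, so neither is a result about the receptors. After IOP elevation in KO-labelled libraries, 3 rose and 2 fell, where 7.88% of all genes tested passed, with Cx3cr1 at -4.17, Cxcr6, the receptor for Cxcl16, at -4.52 and Ccr2 at 4.30. Cx3cr1 held 952 to 1233 normalized counts in KO-labelled IOP libraries, against 26836 to 54612 in WT IOP libraries. Its log2 difference was -0.45 in WT after IOP elevation and 0.42 in KO-labelled libraries after ONC, neither called. Cx3cr1 is the gene that carries the GFP reporter, so a reporter difference of the KO-labelled IOP libraries cannot be told apart from IOP elevation. Against WT IOP libraries, 0 receptors were higher and 3 lower in KO-labelled ones (2.11% of all genes tested passed), which were Cx3cr1 (-5.19), Cxcr6 (-4.04) and Cxcr2 (-1.47). For the interaction of genotype and IOP elevation, 2 were called higher and 3 lower (8.75% of all genes tested passed), with Cx3cr1 (-3.71), Cxcr6 (-5.26) and Cxcr2 (-2.01) as the lower ones.

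Of 21 NF-kB regulators, 4 rose in WT retinas after ONC, 14 rose in KO-labelled ones after ONC, and 8 rose in KO-labelled ones after IOP elevation, with 0 lower. The shares of all genes tested that passed as higher were 7.55%, 12.7% and 5.06% in these comparisons. After ONC the sensor Tlr2 was at 1.91 in WT and 2.11 in KO-labelled libraries, and the NF-kB subunit Relb was at 3.15 in WT. After IOP elevation in KO-labelled libraries the inhibitor Nfkbie was at 1.17, Tlr2 at 1.502 and the inhibitor Nfkbia at 0.72. For the interaction with IOP elevation 4 were called, led by Nfkbie (1.40), Ikbkb (1.02) and Nfkb2 (1.65), all higher, where 4.85% of all genes tested passed as higher.

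Of 17 interferon regulators, 2 rose in WT retinas after IOP elevation, among them Irf9 at 0.93, where 0.842% of all genes tested passed as higher. After ONC 5 rose in WT, with Irf7 at 3.22 and Stat2 at 1.43, and 12 rose in KO-labelled libraries, with Irf7 at 3.46 and Stat2 at 1.37, beside 7.55% and 12.7% of all genes tested. After IOP elevation in KO-labelled libraries 8 rose, led by Irf7 (1.23), Tlr3 (1.29) and Irf5 (1.03), and 4 were called for the interaction, led by Irf5 (1.29), Ifngr1 (1.13) and Jak1 (1.16), with 0 lower, beside 5.06% and 4.85% of all genes tested. In all other comparisons, 0 genes of these 2 lists were called. The microglia markers rose with them in KO-labelled libraries (median log2 differences of 1.09 after IOP elevation and 1.26 after ONC), and the part of this in the counts was not tested.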

How the data were processed

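RNA from FACS-isolated retinal microglia was sequenced by the authors from libraries made with a SMARTER kit. The paper names salmon and GRCm38 for quantification, and the submitters' processing notes list STAR and DESeq2. The deposited values are a signal, normalized counts per gene, which the authors made by dividing read counts by library size factors. Whole reads were recovered by the steps between values (100.0% of values whole within 0.01 in each library), and 3 reads, taken as the upper limit for a value of 0, equal 2.41 to 4.03 normalized counts, for counting error only. Symbols were matched to GENCODE M21 for 34732 genes by versioned identifier and for 704 without the version.

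Values were tested with limma 3.58.1 (R 4.3.3, eBayes with trend) on log2(normalized count + 1) for 17102 genes with at least 10 normalized counts in at least 3 of 23 libraries, all 6 groups sharing 1 estimate of the spread. Fold changes are on that scale, which understates the fold of low genes and can overstate it where a group holds zeros. On simulated data for KO IOP against WT IOP (17102 genes, 200 changed), 41 of 100 genes changed 2-fold and 92 of 100 changed 4-fold were recovered, with 11 false calls. Alternatives were pseudocounts of 0.5 and 5, no filter, upper-quartile rescaling, quantile normalization, a replicate block, a rod marker covariate, the compared groups alone, edgeR 4.0.16 and DESeq2 1.42.0 on recovered reads and leaving out each library. Marker scaling and subsets of libraries were added after seeing the data. The chemokines and the lists were chosen with earlier results of these data known. Genes named beyond the 10 are called list members (at most 3 a list and comparison, lowest adjusted p first), the 5 genes most like Ccl5, and the leading or absent genes of marker lists, and some genes that this rule names are not reported here. Ccr2, Ccl8 and Ddx3y were also named after their values were seen. Python 3.11.15 was used for tables (pandas 2.3.3 and numpy 2.4.6) and plots (matplotlib 3.10.9).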

Additional observations from a re-analysis of the deposited data

Results flagged for a closer look

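In 10 of 50 groups of 4 libraries of a chemokine, 1 library lay far from the others. Chance marks about 1 in 20 groups if they are independent. The 10 genes share the same libraries, so these groups are not independent and that rate cannot be set against the 10. KO-labelled naive replicate 3 was the high one in 6 of them. It held 428 normalized counts of Ccl3 (185 to 205 in the others), 526 of Ccl5 (147 to 177), 8619.5 of Ccl6 (2364 to 2606), 3083 of Ccl9 (1159 to 1362), 370.04 of Cxcl10 (102 to 142) and 4012 of Cxcl16 (2030 to 2178). WT IOP replicate 2 held 712 of Ccl5 (226 to 286 in the others), and WT IOP replicate 1 held 35.7 of Cxcl9 (0 to 2.66). KO-labelled IOP replicate 2 held 4077 of Ccl9, below the others (4675 to 4781), and KO-labelled IOP replicate 3 held 477 of Cxcl10 (206 to 237).

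The response to IOP elevation differed between genotypes, by the interaction test of limma, for Ccl5 (2.91, adjusted p = 0.00433) and for Ccl9 (2.15, adjusted p = 0.0121). The median interaction was 1.41 over the 10 chemokines and 1.47 over the 11 microglia markers. Ccl5 was higher in 4 of 4 KO-labelled IOP libraries than in every KO-labelled naive library, and Ccl9 likewise in 4 of 4.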

How the results depend on the processing

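No count or fold change turned its sign between called values under any alternative. The counts of called chemokines in WT IOP, WT ONC, KO-labelled ONC against WT ONC and the interaction with ONC stayed within 1.5 times under every alternative that used all libraries. For KO-labelled ONC against naive, Ccl12, Cxcl9 and Cxcl10 each lost the call under an alternative that kept all libraries of both groups. Between naive groups the count went from 0 to 2 with quantile normalization and to 1 with DESeq2 (Ccl9, lower in KO-labelled libraries, -1.13). It went to 1 with marker scaling (Cxcl10, higher, 1.14), where 26.5% of all genes tested passed in either direction. For KO-labelled IOP against naive it went from 7 to 0 with the rod marker covariate and with the compared groups alone. It went to 3 with marker scaling and to 1 with IOP replicates 1 and 3 only. For KO-labelled IOP against WT IOP it went from 1 to 0 with the rod marker covariate, the compared groups alone, edgeR, marker scaling and IOP replicates 1 and 3 only. For the interaction with IOP elevation it went from 2 to 0 with the rod marker covariate and to 1 with marker scaling. It was 3 with quantile normalization. With naive replicate 3 as the only KO-labelled naive library, the log2 fold change of Ccl5 went from 2.14 to 0.90 after IOP elevation. It went from 3.98 to 2.73 after ONC, and the Ccl5 interaction with IOP elevation went from 2.91 to 1.66. The cause was not tested.

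Leaving out 1 library gave counts of 9 to 10 in WT ONC, 2 to 8 in KO-labelled IOP, 10 to 10 in KO-labelled ONC, 0 to 3 between naive groups, 0 to 1 between IOP groups, 2 to 6 for the interaction with IOP elevation and 0 to 1 for that with ONC, and 0 in the other comparisons. Leaving out KO-labelled naive replicate 1, 2 or 4 gave the 2 and leaving out replicate 3 the 8, the 3 and the 6. Without KO-labelled IOP replicate 1, the interaction count was 4. The shares of all genes tested that passed in the leave-one-out fits are not given, so these counts have no background beside them. Replicate numbers did not pair the samples, since the lowest correlation of deviations of same-numbered libraries was under 0.1 in each comparison (-0.253 to 0.153 over all). The replicate block changed no count of chemokines (0, 9, 7, 10, 0, 1, 0, 2 and 0 in the order of the report's plot of fold changes).

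Whole counts of Cxcl9 were at 0 to 9 reads in KO-labelled naive libraries, which limits its fold changes. KO-labelled naive, IOP and ONC libraries differ in microglia marker content, and whether a library is a pool or 1 mouse is not settled.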
